A study of Mus musculus with 6 samples.

Results

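Prg4 (proteoglycan 4, or lubricin) and 9 small leucine-rich proteoglycans (SLRPs) were followed in B16 tumours, which grow from a melanoma cell line of the mouse. The 9 SLRP genes were Dcn (decorin), Lum (lumican), Bgn (biglycan), Fmod (fibromodulin), Ogn (osteoglycin), Prelp, Aspn (asporin), Omd (osteomodulin) and Podn (podocan). They were taken by gene symbol from the deposited count matrix, where each had 1 of the 34665 rows, and they were chosen with their values in these libraries known. Their differences between the groups are therefore given as a description, with no test of their own, and their calls in the fit across all genes are counted only as such. All 10 passed the filter on low counts, although Fmod and Omd did so with only 1 to 45 and 3 to 19 counts per library.

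The RI tumours (n = 3, replicates 1, 2 and 4) came from radiation combined with an immune checkpoint inhibitor, and the ICI tumours (n = 3, replicates 1, 2 and 3) from the inhibitor without radiation. All 6 were labelled wild type, so the inhibitor, the cell line and the genotype are common to both groups. The series concerns fibroblasts that express Sfrp2, and the comparison asks which transcripts differed when radiation was added. The labels do not state which checkpoint was targeted, how much radiation was given, when tumours were taken, whether they were themselves irradiated, or whether each library is from its own animal. P-values then measure only the spread between these libraries, which may be technical.

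Library totals ran from 22543721 to 45624013 counts. The melanocyte markers of the labelled cell line were abundant, with a summed level of 10600 to 15100 CPM (counts scaled to library size) in RI and 13900 to 15800 CPM in ICI over 8 genes. RI replicate 1 stood apart, with 29748 rows above 0 and the other 5 libraries between 22763 and 24891, and results that rest on it are given below with and without it. The RNA is from bulk tumour tissue. For every transcript described here, a change in the number of cells of a type and a change in RNA per cell cannot be told apart.

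SLRPs are secreted proteins with a small core of leucine-rich repeats, most of which carry chondroitin, dermatan or keratan sulfate chains. They bind collagen fibrils and set fibril diameter and spacing, and several of them also bind growth factors of the TGF-beta family or cell surface receptors. In tumours they are made mainly by fibroblasts and related stromal cells. Prg4 belongs to another family: it encodes a large mucin-like glycoprotein, best known as the boundary lubricant of joints, and is also made by mesothelial and some other connective tissue cells.

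The difference in build between Prg4 and the SLRPs can be read in the coding sequence. The following stretch of the longest Prg4 coding sequence (GENCODE M21, GRCm38, chromosome 1, minus strand, coding bases 1077 to 1196 of 3663) lies in its mucin-like repeat region. The capitals mark the 9-base word that occurs 50 times in the coding sequence, 5 of them in the stretch shown.
Prg4: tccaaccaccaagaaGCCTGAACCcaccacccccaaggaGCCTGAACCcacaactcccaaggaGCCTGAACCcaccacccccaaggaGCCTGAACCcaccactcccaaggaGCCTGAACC
In Prg4, 40.0% of the 9-base words of the coding sequence occurred more than once. In the 9 SLRP coding sequences, which ran from 894 to 1833 bases, the share lay between 0.68% in Ogn and 6.58% in Podn.

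Several of the genes are neighbours. On chromosome 10, Dcn (97479609 to 97518143) and Lum (97565128 to 97572703) lie 46984 bases apart on the plus strand. On chromosome 1, Prelp (133910304 to 133921414, minus strand) and Fmod (134037254 to 134048277, plus strand) lie 115839 bases apart, and Prg4 (150449412 to 150466165, minus strand) lies elsewhere on that chromosome. On chromosome 13, Aspn (49544443 to 49567565), Omd (49582462 to 49592822) and Ogn (49608046 to 49624501) follow each other on the plus strand with gaps of 14896 and 15223 bases. Bgn lies on chromosome X (73483602 to 73495933, plus strand) and Podn on chromosome 4 (108014791 to 108096445, minus strand).

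The promoters of the chromosome 13 neighbours are shown because the fitted differences of these adjacent genes had opposite signs, although none of the 3 was called. Each window runs from 250 bases before to 50 after the start given by RefSeq (GRCm38.p6). The capitals mark matches to TATAAA on either strand, read as TTTATA where the match is on the other strand. In the Ogn window the matches on each strand overlap.
Aspn, chr13:49544193-49544492, plus strand: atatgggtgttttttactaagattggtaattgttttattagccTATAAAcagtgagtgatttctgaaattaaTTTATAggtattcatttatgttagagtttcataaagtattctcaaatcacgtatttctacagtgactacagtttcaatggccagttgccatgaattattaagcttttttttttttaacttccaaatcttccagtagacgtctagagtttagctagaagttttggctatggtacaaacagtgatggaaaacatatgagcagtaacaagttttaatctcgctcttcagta
Omd, chr13:49582212-49582511, plus strand: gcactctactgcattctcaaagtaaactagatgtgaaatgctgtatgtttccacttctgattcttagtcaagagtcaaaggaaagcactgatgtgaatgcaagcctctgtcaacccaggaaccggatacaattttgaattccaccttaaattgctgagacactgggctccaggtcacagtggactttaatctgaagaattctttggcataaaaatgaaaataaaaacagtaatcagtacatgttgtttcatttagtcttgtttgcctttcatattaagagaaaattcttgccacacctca
Ogn, chr13:49607765-49608064, plus strand: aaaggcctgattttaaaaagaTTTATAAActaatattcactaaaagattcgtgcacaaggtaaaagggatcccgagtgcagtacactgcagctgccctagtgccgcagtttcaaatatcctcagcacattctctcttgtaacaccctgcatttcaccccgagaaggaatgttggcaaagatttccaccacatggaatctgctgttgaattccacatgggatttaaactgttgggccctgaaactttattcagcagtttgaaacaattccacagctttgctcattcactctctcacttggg
TATAAA was found in the Aspn and Ogn windows, with 2 matches each over both strands, and in 13.62% of 32851 RefSeq promoters of the same length. The Omd window had no match. No window of the 3 held TGANTCA, the motif of AP-1 factors, or CAGACA, a motif of SMAD factors, on either strand, and 7.81% and 21.04% of all promoters held them. These are letter matches in a short window and say nothing of binding.

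Of the 10 genes, Prg4 had the largest fitted difference and Fmod the largest in the other direction. In the edgeR quasi-likelihood fit across 16924 genes, 1 of the 10 (Prg4) passed as higher in RI at a Benjamini-Hochberg adjusted p under 0.05 and 0 passed as lower. Among all tested genes 4.46% passed as higher and 4.72% as lower. DESeq2 and limma-voom each called 1 of the 10, where they called 3449 and 1326 of the 16924 tested genes. In edgeR 3 of the 10 had an unadjusted p under 0.05, against 5335 of all tested genes. The groups did not overlap for 4 of the 10 (Prg4, Dcn, Omd and Fmod), against 37.2% of all tested genes. The median log2 fold change of the 10 was 0.39, with 0.01 over all tested genes. Since the genes were chosen on this contrast, nothing follows from these counts.

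**Figure D1:**
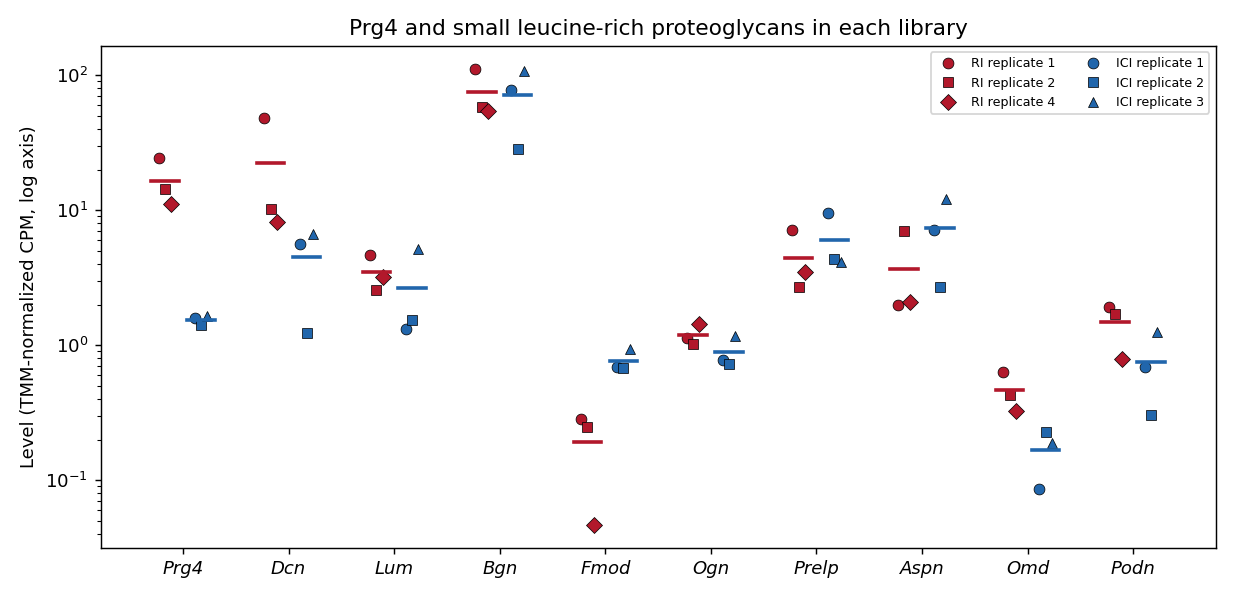
TMM-normalized CPM (log axis) of Prg4 and 9 SLRP genes in each library, RI in red left of ICI in blue, with horizontal bars at the group means (n = 3 each). Prg4 lies at 11.1 to 24.2 CPM in RI and 1.41 to 1.65 CPM in ICI, and for 6 of the 10 genes the groups overlap.

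Prg4 was at 24.2, 14.3 and 11.1 CPM in RI replicates 1, 2 and 4, and at 1.58, 1.41 and 1.65 CPM in ICI replicates 1, 2 and 3. The ICI libraries were close to each other, the RI libraries were more spread, and the lowest RI library was well above the highest ICI library. The raw counts were 683, 634 and 237 in RI and 55, 56 and 79 in ICI. The means were 16.5 ± 6.86 CPM in RI and 1.55 ± 0.125 CPM in ICI (SD, n = 3 each), a 10.7-fold difference (log2 fold change 3.41, SE 0.33). Without RI replicate 1 the log2 fold change was 3.03. The call across all genes ended without ICI replicate 1, ICI replicate 3 or RI replicate 2, where the log2 fold changes were 3.42, 3.45 and 3.52. Those fits called only 0, 2 and 0 of all tested genes, so the lost call is not particular to Prg4. The Prg4 exons share 204 of 4280 bases (4.77%) with exons of Tpr, a nuclear pore gene on the other strand, and whether counting used the strand is not given here. Tpr was lower in RI than in ICI in every library, at 116.2 to 126.6 CPM in RI and 159.5 to 168.1 CPM in ICI. The part of Tpr reads in the counts of Prg4 was not tested.

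Decorin, biglycan and asporin belong to the same class of SLRPs and can bind TGF-beta, with chondroitin or dermatan sulfate chains on decorin and biglycan. Dcn was at 48.5, 10.2 and 8.12 CPM in RI replicates 1, 2 and 4, and at 5.58, 1.23 and 6.71 CPM in ICI replicates 1, 2 and 3. RI replicate 1 was far above all other libraries, and the lowest RI library was only a little above the highest ICI library. The means were 22.3 ± 22.7 CPM in RI and 4.51 ± 2.89 CPM in ICI, with a log2 fold change of 2.30 (SE 0.95) that was 1.02 without RI replicate 1.

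Bgn was the most abundant of the 10 genes. It was at 111.7, 58.0 and 54.3 CPM in RI and 77.3, 28.5 and 106.8 CPM in ICI. The groups overlapped, with the highest value of all in RI replicate 1 and the lowest in ICI replicate 2. The log2 fold change was 0.08 (SE 0.52), and it was -0.34 without RI replicate 1 and -0.31 without ICI replicate 2.

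Aspn, which lacks the sugar chains of its relatives and restrains TGF-beta signalling in cartilage, was at 1.99, 7.01 and 2.10 CPM in RI and 7.19, 2.72 and 12.2 CPM in ICI. RI replicate 2 and ICI replicate 2 each stood on the other group's side. The log2 fold change was -0.98 (SE 0.68), and it ran from -1.84 without RI replicate 2 to -0.42 without ICI replicate 3.

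Fibromodulin, lumican, Prelp and osteomodulin form the class that includes the keratan sulfate proteoglycans. Fmod was at 0.284, 0.248 and 0.0467 CPM in RI replicates 1, 2 and 4, and at 0.690, 0.679 and 0.941 CPM in ICI replicates 1, 2 and 3. All RI libraries were below all ICI libraries, on counts of 8, 11 and 1 in RI and 24, 27 and 45 in ICI. The difference was 3.77-fold, lower in RI (log2 fold change -1.91, SE 0.55). It was -1.53 without RI replicate 4, which held 1 count. Fibromodulin shares its collagen binding site with lumican and takes part in fibril assembly.

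Lum, which spaces the collagen fibrils of the cornea and is common in skin and tumour stroma, was at 4.68, 2.55 and 3.22 CPM in RI and 1.32, 1.53 and 5.16 CPM in ICI. ICI replicate 3 held the highest value and the other ICI libraries the lowest. The log2 fold change was 0.37 (SE 0.54), and it was 1.27 without ICI replicate 3, 0.04 without ICI replicate 1, 0.08 without ICI replicate 2 and 0.09 without RI replicate 1.

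Prelp, which links basement membranes to connective tissue, was at 7.09, 2.70 and 3.50 CPM in RI and 9.55, 4.35 and 4.12 CPM in ICI. The groups overlapped, and the first replicate was the highest in each. The log2 fold change was -0.44 (SE 0.46), and it was 0.05 without ICI replicate 1. Prelp shares 350 bases (9.68%) of its exons with Gm15851 on the other strand, a row with 0 to 2 counts.

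Omd, a keratan sulfate proteoglycan best known from bone, was at 0.638, 0.428 and 0.327 CPM in RI and 0.0863, 0.227 and 0.188 CPM in ICI. The groups did not overlap, but the counts were only 18, 19 and 7 in RI and 3, 9 and 9 in ICI. The log2 fold change was 1.45 (SE 0.52).

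Ogn, of the class that also holds epiphycan, was at 1.13, 1.014 and 1.45 CPM in RI and 0.776, 0.730 and 1.17 CPM in ICI, with a log2 fold change of 0.41 (SE 0.36). Podn, of the class of podocan and its relative Podnl1, was at 1.92, 1.71 and 0.793 CPM in RI and 0.690, 0.302 and 1.25 CPM in ICI, with a log2 fold change of 0.98 (SE 0.56) that was 1.57 without ICI replicate 3 and 0.59 without ICI replicate 2. For both genes ICI replicate 3 reached into the range of RI. Among the chromosome 13 neighbours, the log2 fold change was thus negative for Aspn and positive for Omd and Ogn.

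**Figure D2:**
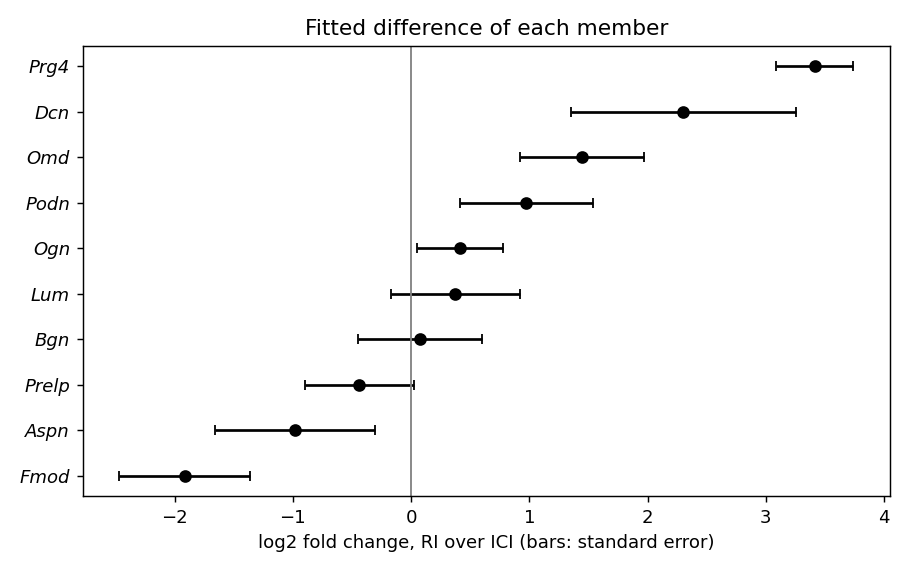
Log2 fold change of each gene, RI over ICI, from the edgeR fit (points), with bars of 1 standard error to each side. Prg4 is at 3.41 with SE 0.33, Dcn at 2.30 with a far wider SE of 0.95, and Aspn, Prelp and Fmod lie below 0.

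To compare levels between genes, counts were also divided by the length of the longest transcript and scaled to a fixed total per library. This scale leaves out the TMM factors, so it serves to compare genes within a library and not the groups. The mean of Bgn was 74.7 CPM in RI and 70.9 CPM in ICI, but 39.0 and 56.5 per length. The group means of Lum and Ogn also changed order. On that scale Bgn led in RI at a mean of 39.0, followed by Dcn at 6.36, Prg4 at 5.40, Aspn at 2.32, Lum at 2.00, Prelp at 1.70, Ogn at 0.670, Podn at 0.569, Omd at 0.289 and Fmod at 0.0859. In this order the RI libraries of neighbours overlapped except between Bgn and Dcn, between Prelp and Ogn, and between Omd and Fmod. In ICI the order of the mean per-length levels was Bgn at 56.5, Aspn at 6.74, Prelp at 3.46, Lum at 2.32, Dcn at 2.05, Prg4 at 0.756, Ogn at 0.729, Fmod at 0.516, Podn at 0.439 and Omd at 0.153. There the libraries of neighbours overlapped except between Bgn and Aspn. Prg4 ranked 3 in RI and 6 in ICI, and Fmod ranked 10 in RI and 8 in ICI.

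The make-up of the set was also read within each library. The summed per-length level of the 10 genes was 81.9, 49.7 and 43.5 in RI and 79.2, 28.9 and 112.9 in ICI. Those sums are not on a scale that compares the groups. In CPM the sum was 84.9 to 202 in RI and 41.7 to 140 in ICI, so the groups overlapped. Bgn took 65.5%, 65.5% and 70.7% of that sum in RI and 77.2%, 71.4% and 77.7% in ICI. Prg4 took 8.88%, 10.1% and 9.01% in RI, against 0.988%, 2.21% and 0.752% in ICI, and it was nearly the same share in each RI library. Dcn took 16.1%, 6.55% and 6.01% in RI and 3.17%, 1.75% and 2.78% in ICI, with RI replicate 1 apart. Aspn took 1.33%, 9.06% and 3.13% in RI and 8.22%, 7.79% and 10.2% in ICI, and RI replicate 2 lay among the ICI libraries.

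**Figure D3:**
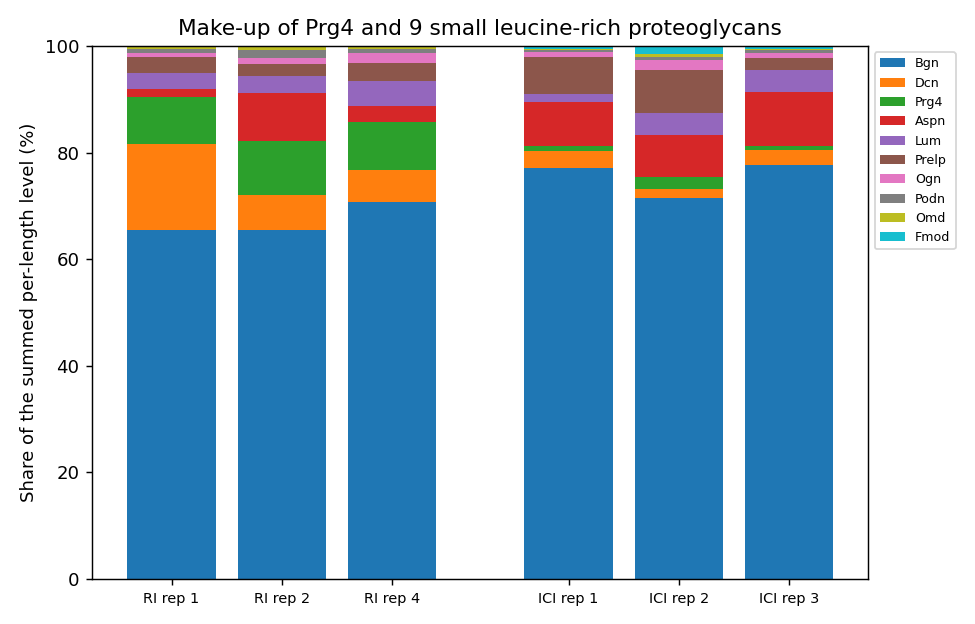
Share of each of the 10 genes in their summed per-length level (percent, stacked to 100) in each library, RI left of ICI. Bgn takes 65.5% to 77.7% in every library, and Prg4 takes 8.88% to 10.1% in RI and 0.752% to 2.21% in ICI.

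Ratios within a library set Prg4 beside other genes of stromal cells. Per length, Prg4 over Bgn was 0.136, 0.154 and 0.127 in RI and 0.0128, 0.0309 and 0.00967 in ICI. Prg4 over Col1a1, the main chain of type I collagen, was 0.136, 0.131 and 0.121 in RI and 0.0212, 0.0510 and 0.00837 in ICI. Prg4 over Pdgfra, a receptor that marks fibroblasts, was 4.84, 4.84 and 6.13 in RI and 1.013, 1.83 and 0.833 in ICI. Each of these ratios was higher in all RI libraries than in any ICI library. The RI libraries differed from each other by less than they did in the CPM of Prg4, but the ICI libraries differed by more. A ratio higher in every RI library was not particular to Prg4. Dcn over Bgn was 0.2464, 0.1 and 0.08501 in RI and 0.04102, 0.02455 and 0.03571 in ICI. Dcn over Col1a1 was 0.2468, 0.08525 and 0.08044 in RI and 0.06801, 0.04056 and 0.03091 in ICI. Prg4 over Dcn was 0.550, 1.54 and 1.499 in RI and 0.312, 1.26 and 0.271 in ICI, and here the groups overlapped. Fmod over Bgn was 0.00217, 0.00365 and 0.000735 in RI and 0.00763, 0.0203 and 0.00753 in ICI, lower in every RI library.

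The SLRP genes outside the set did not show a called difference. Of 9 listed, 8 had a row (keratocan was not found) and 5 were tested, of which 0 were called in either direction by edgeR (adjusted p under 0.05), with 2 at an unadjusted p under 0.05, 1 called by DESeq2 and 0 by limma-voom. Their median log2 fold change was -0.18. Chadl, which restrains collagen fibril assembly in cartilage, was at 42.9, 29.9 and 43.5 CPM in RI and 26.0, 21.8 and 13.2 CPM in ICI (log2 fold change 0.93, edgeR adjusted p = 0.0611). The groups did not overlap, but Chadl shares 19.5% of its exon bases with L3mbtl2 on the other strand. Chad (chondroadherin), which binds collagen and integrins in cartilage, was at 0.177, 0.315 and 0.560 CPM in RI and 0.776, 1.06 and 0.815 CPM in ICI (log2 fold change -1.36, edgeR adjusted p = 0.101). Optc (opticin, of the vitreous of the eye), Ecm2 and Tsku (tsukushi, a BMP inhibitor) had log2 fold changes of -0.50, -0.18 and 0.15 with edgeR adjusted p = 0.317, 0.784 and 0.668. Optc lies 2304 bases from Prelp and Ecm2 11653 bases from Aspn.

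Genes that make, bind and process proteoglycans were read from 6 further lists, chosen with earlier results of these data known. The counts called for these lists and for the marker lists stand beside 4.46% higher and 4.72% lower over all tested genes. Of 12 tested large and basement membrane proteoglycans and link proteins, 1 rose and 0 fell, with a median log2 fold change of 0.54. Spock2, a testican proteoglycan of the matrix, rose to 1.28, 1.014 and 0.700 CPM in RI against 0.201, 0.176 and 0.104 CPM in ICI (6.21-fold, edgeR adjusted p = 0.0282). Of 12 cell surface proteoglycans 0 were called by edgeR, with 3 at an unadjusted p under 0.05, 1 called by DESeq2 and 0 by limma-voom, and a median of -0.09. Of 28 genes that build chondroitin, dermatan or keratan sulfate chains, 0 rose and 1 fell, with 9 fold changes above 0 and a median of -0.13. The gene that fell was Fam20b, the xylose kinase that promotes chain growth on the core protein. It was at 60.3, 49.9 and 55.2 CPM in RI against 98.0, 80.1 and 86.7 CPM in ICI (1.60-fold lower, edgeR adjusted p = 0.0327).

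Of 16 growth factors and receptors known as partners of these proteins, 0 rose and 1 fell, with 3 fold changes above 0 and a median of -0.70. Met, the hepatocyte growth factor receptor and a known partner of decorin, was at 218.6, 182.0 and 223.9 CPM in RI against 400.2, 266.0 and 375.8 CPM in ICI (1.67-fold lower, edgeR adjusted p = 0.0466). Of 21 proteases, their enhancers and inhibitors, 2 rose and 0 fell, with a median of -0.01. Bmp1, the procollagen C-proteinase, which also cleaves the propeptide of biglycan, was at 60.5, 64.6 and 60.8 CPM in RI and 42.9, 35.3 and 37.6 CPM in ICI (1.61-fold, adjusted p = 0.0292). Pcolce, which enhances that cleavage of procollagen, was at 259.1, 248.6 and 310.9 CPM in RI and 170.3, 172.8 and 129.0 CPM in ICI (1.73-fold, adjusted p = 0.0346).

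Of 16 genes of collagen fibrils and their partners 2 rose and 0 fell, with a median of 0.22. Tnxb, a tenascin that binds collagen and decorin, was at 14.4, 17.3 and 14.1 CPM in RI and 6.64, 3.75 and 6.11 CPM in ICI (2.78-fold, adjusted p = 0.0268). Col5a3, a minor fibril chain, was at 77.3, 123.2 and 125.9 CPM in RI and 45.6, 49.4 and 66.1 CPM in ICI (2.03-fold, adjusted p = 0.0377). These adjusted p-values are from edgeR over all tested genes. Of the 7 genes called over these lists, 0 were called without ICI replicate 1 (adjusted p = 0.137 to 0.175), ICI replicate 3 (0.1 to 0.132), RI replicate 2 (0.0907 to 0.139) or RI replicate 4 (0.0633 to 0.101). Among all tested genes those fits called 0, 2, 0 and 97. Without ICI replicate 2, Spock2, Bmp1, Pcolce and Col5a3 were not called (0.0549 to 0.0854), and without RI replicate 1 all 7 were. After a correction for transcript length and GC content, Fam20b, Met, Pcolce and Col5a3 were not called (0.0528 to 0.109). Limma-voom did not call Met (0.0526).

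**Figure D4:**
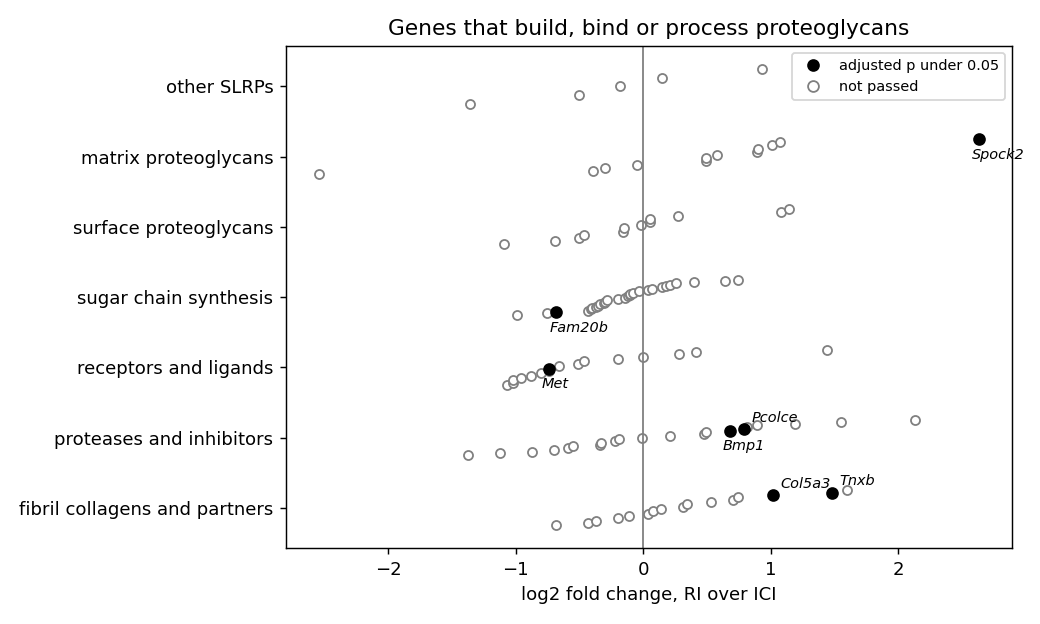
Log2 fold change, RI over ICI, of each tested gene of 7 lists (1 point a gene, sorted within its list; the vertical spread has no meaning). Filled points passed an edgeR adjusted p under 0.05 and are named: 5 of the 7 lie above 0, and Fam20b and Met lie below 0.

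Markers of stromal cells varied between libraries within both groups. The median log2 CPM of the 10 genes relative to each gene's mean was 0.76, 0.21 and -0.07 in RI and -0.40, -0.74 and 0.29 in ICI. On the same measure 15 fibroblast markers were at 0.65, 0.01 and 0.01 in RI and -0.22, -0.89 and 0.39 in ICI. The collagen fibril list was at 0.44, 0.16 and -0.11 in RI and -0.08, -1.37 and 0.85 in ICI. In all 3 lists RI replicate 1 was the highest RI library, ICI replicate 3 the highest ICI library and ICI replicate 2 the lowest of the 6. The summed level of 16 fibroblast markers was 338 to 466 CPM in RI and 246 to 429 CPM in ICI. Of the 15 tested, 1 rose and 0 fell, with 9 fold changes above 0 and a median log2 fold change of 0.62. In edgeR 7 had an unadjusted p under 0.05, limma-voom called 1, and DESeq2 called 4 higher and 2 lower. Over all 16924 tested genes these numbers were 5335, 1326, and 1746 higher and 1703 lower. Thy1, a surface marker of fibroblasts, had a fold change below 0 and was not called. It was at 12.6, 9.08 and 8.21 CPM in RI and 26.4, 12.4 and 23.6 CPM in ICI. Pdgfra had a log2 fold change of 1.18 and Pdgfrb of 0.09, and neither was called. The level of Pdgfra was 8.02, 4.73 and 2.89 CPM in RI and 2.50, 1.23 and 3.18 CPM in ICI. Clec3b (tetranectin) was at 3.30, 1.83 and 1.87 CPM in RI and 0.144, 0.478 and 0.669 CPM in ICI (5.30-fold, edgeR adjusted p = 0.0404). The part of fibroblast content in the values of Dcn, Lum and Bgn was not tested.

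**Figure D5:**
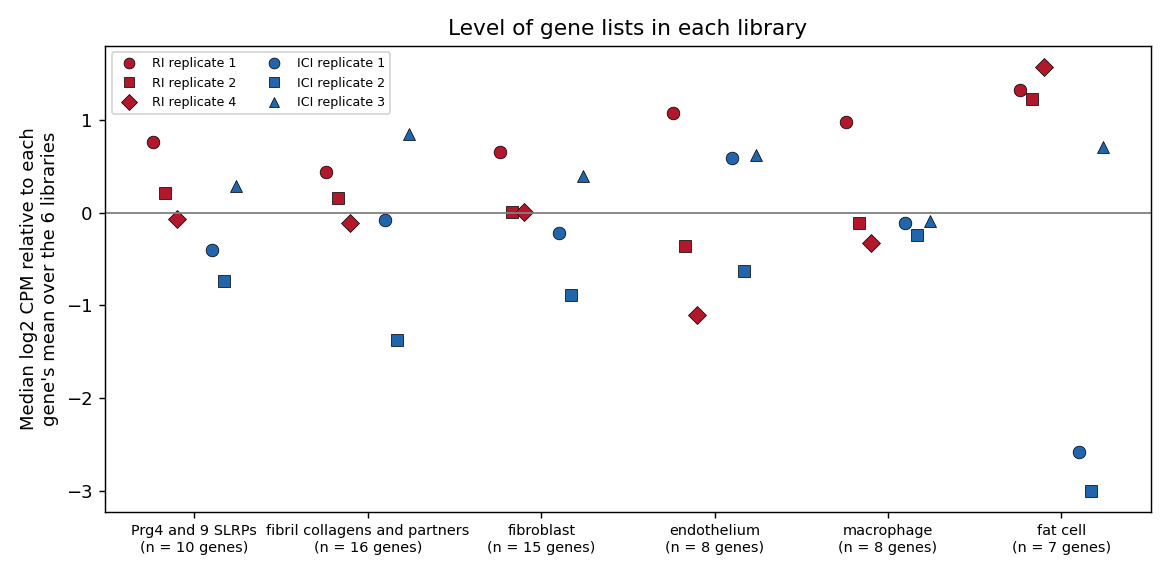
Median log2 CPM relative to each gene's mean over the 6 libraries, for the 10 genes and 5 other lists, with RI in red left of ICI in blue (1 point a library). RI replicate 1 is the highest RI library in the first 5 lists. In the fat cell list ICI replicate 3, at 0.71, lies between the RI libraries and the other ICI libraries.

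Markers of the cells best known for Prg4 were of low count or gave no call. The 6 mesothelial markers summed to 0.608 to 1.63 CPM in RI and 0.293 to 0.327 CPM in ICI, none passed the filter on low counts, so none was tested, and Lrrn4 was at 0 counts in all libraries but RI replicate 1. The sums did not overlap, and with no filter on low counts 1 of the 6 (Wt1) was called higher. The markers of synovium, tendon and cartilage summed to 57.7 to 103 CPM in RI and 36.6 to 58.8 CPM in ICI. Of 9 tested 0 were called by edgeR, with 0 at an unadjusted p under 0.05 and 0 called by DESeq2 or limma-voom, and 7 had a fold change above 0 (median log2 fold change 0.57). Without RI replicate 4, 1 (Thbs4) was called higher. The tendon marker Tnmd was at most 0.0709 CPM in any library, but other markers of the list were higher. Col2a1 was at 14.6, 42.4 and 35.15 CPM in RI and 13.7, 11.5 and 24.5 CPM in ICI. Thbs4 was at 27.6, 26.8 and 1.73 CPM in RI and 9.92, 7.17 and 5.75 CPM in ICI. The tendon marker Scx was at 2.66, 2.75 and 2.10 CPM in RI and 3.42, 1.64 and 2.22 CPM in ICI. The bone markers summed to 50.2 to 81.8 CPM in RI and 32.2 to 61.4 CPM in ICI over 8 genes. Most of each sum was Spp1, at 73.0, 43.3 and 73.7 CPM in RI and 54.8, 24.3 and 35.8 CPM in ICI. Of 5 tested bone markers 0 were called by edgeR, with 0 at an unadjusted p under 0.05 and 0 by DESeq2 or limma-voom.

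Fat cell markers were higher in sum in RI, but not each of them. The sum over 8 genes was 220 to 405 CPM in RI and 104 to 117 CPM in ICI, all 7 tested had a fold change above 0, and 2 rose and 0 fell. The groups overlapped for 3 of the 7, where 37.2% of all tested genes did not overlap. Adipoq (adiponectin) was at 1.60, 1.22 and 1.87 CPM in RI and 0.0575, 0.0252 and 2.19 CPM in ICI, with its highest value in ICI replicate 3. Plin4, a lipid droplet protein, was at 30.4, 28.1 and 16.2 CPM in RI and 0.632, 0.629 and 4.03 CPM in ICI (log2 fold change 3.79, edgeR adjusted p = 0.0456). Fabp4, a fatty acid carrier of fat cells, macrophages and endothelium, was at 183.3, 90.5 and 126.5 CPM in RI and 50.5, 39.0 and 55.7 CPM in ICI (log2 fold change 1.46, edgeR adjusted p = 0.0292). On the relative scale ICI replicate 3 was at 0.71. It lay below RI replicates 1, 2 and 4 (1.32, 1.23 and 1.57) and above ICI replicates 1 and 2 (-2.58 and -3.0). Without ICI replicate 3 the log2 fold change of Plin4 was 5.28. The part of fat tissue in the result for Prg4 was not tested.

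Macrophage markers summed to 123 to 284 CPM in RI and 128 to 137 CPM in ICI over 8 genes, of which 2 rose and 0 fell, with 6 fold changes above 0 and a median of 0.50. The general macrophage markers Adgre1 and Csf1r were the only ones with a fold change below 0. Cd68, also a general marker, was among the 6 above 0 and was not called (log2 fold change 0.71, edgeR adjusted p = 0.058). Its level was 43.5, 27.5 and 31.0 CPM in RI and 22.3, 21.8 and 18.1 CPM in ICI. Adgre1 was at 6.60, 1.74 and 1.35 CPM in RI and 7.94, 2.54 and 9.81 CPM in ICI, and Csf1r at 10.4, 6.06 and 4.99 CPM in RI and 11.5, 9.66 and 12.2 CPM in ICI. Without RI replicate 1, 1 of the 8 was called higher (Marco) and 2 lower (Csf1r and C1qb). Marco and Cd163 are scavenger receptors of tissue macrophages. Marco was at 13.7, 1.55 and 8.49 CPM in RI and 0.345, 0.554 and 0.418 CPM in ICI, and Cd163 at 6.84, 4.17 and 2.43 CPM in RI and 0.575, 1.56 and 1.25 CPM in ICI. They had log2 fold changes of 4.16 and 1.98 (edgeR adjusted p = 0.0328 and 0.0467), and RI replicate 1 was the highest library for each. Of 8 melanocyte markers Mlana rose (log2 fold change 0.75, edgeR adjusted p = 0.0376), and the median of that list was -0.09. Of 8 endothelial markers 0 were called, with 0 at an unadjusted p under 0.05 and 0 by DESeq2 or limma-voom. Of 8 mural cell and 8 skeletal muscle markers 0 were called by edgeR or limma-voom, DESeq2 called 1 of each, and 0 had an unadjusted p under 0.05 in edgeR. All 8 muscle markers had a fold change above 0, with a median log2 fold change of 3.25. They were high in RI replicates 1 and 2 and low in RI replicate 4 and ICI replicate 3, at 4.03, 3.41 and -2.73 in RI and 0.21, 0.52 and -5.57 in ICI on the relative log2 scale. Of 3 epidermal markers 0 were called by edgeR or limma-voom, with 2 at an unadjusted p under 0.05 and 1 called by DESeq2.

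The sums were 75.2 to 244 CPM in RI and 72.1 to 172 CPM in ICI for endothelium, and 64.8 to 596 CPM in RI and 99.4 to 161 CPM in ICI for mural cells. Of the mural markers, Des alone was at 536.0, 152.8 and 27.2 CPM in RI and 89.0, 57.7 and 9.22 CPM in ICI. Of the 8 mural markers 3 had a fold change above 0, and their median log2 fold change was -0.1. The sums were 19.8 to 2460 CPM in RI and 2.89 to 220 CPM in ICI for muscle, and 4.43 to 5.64 CPM in RI and 2.32 to 3.72 CPM in ICI for epidermis. Of the 6 called marker genes named here (Clec3b, Plin4, Fabp4, Marco, Cd163 and Mlana), 0 were called without ICI replicate 1 (adjusted p = 0.144 to 0.164), ICI replicate 2 (0.0530 to 0.0841), RI replicate 2 (0.0571 to 0.134) or RI replicate 4 (0.0723 to 0.0996). Among all tested genes those fits called 0, 525, 0 and 97. Without ICI replicate 3 only Plin4 of the 6 was called, where 2 of all tested genes were. Without RI replicate 1 Plin4 and Cd163 were not called (0.0559 to 0.0763). After the length and GC correction Clec3b, Plin4, Cd163 and Mlana were not called (0.0522 to 0.0764), and limma-voom did not call Marco and Cd163 (0.0520 to 0.0835). Without RI replicate 1 the log2 fold change of Marco was 3.49.

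Against 14043 other tested genes (mean level 1 CPM or more), those whose log2 CPM followed Prg4 most closely over the 6 libraries were Sdk2 (Pearson r 0.997), Gm10925 (0.994), Lilrb4b (0.994), mt-Atp6 (0.993) and Socs2 (0.990). For Dcn they were Lrrc32 (0.995), Commd3 (0.991), Tmem251 (0.991), Ncf1 (0.987) and Tns1 (0.986). mt-Atp6 is encoded in the mitochondrial genome, and it was at 22430, 16500 and 15890 CPM in RI and 5199, 5806 and 5062 CPM in ICI. It thus lay higher in every RI library than in any ICI library, as Prg4 did. With mitochondrially encoded genes and their nuclear copies left out before scaling, the log2 fold change of Prg4 was 3.41, as with them. No gene of the set and no matrix gene of the lists was among them. The 6 points share their libraries and fall into the treatment groups, so these values only rank likeness.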

How the data were processed

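RNA from B16 tumours was sequenced in 6 libraries (3 RI, 3 ICI). The table the authors deposited holds raw read counts for 34665 gene rows. The aligner was HISAT2 and the builds GRCm38 and mm10, per the submitters' processing notes. The sources used here do not state how reads were counted, on which annotation, or with which strand setting and versions.

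Differential expression was computed with edgeR 4.0.16 in R 4.3.3: filterByExpr left 16924 genes, libraries were scaled by TMM, and RI was set against ICI with the robust quasi-likelihood test, with calls at an adjusted p under 0.05 (Benjamini-Hochberg). Levels are TMM-normalized CPM. A standard error (SE) comes from the coefficient and the F statistic. Levels per length use the longest transcript of GENCODE M21. No pair of libraries agreed within sampling noise (chi-square per degree of freedom at least 36.3).

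The 10 genes and 19 further lists were chosen with earlier results of these data known. The named genes were all 10, the other tested SLRP genes, and up to 3 called genes of each list (otherwise its highest, and the first 3 markers of each cell type); not every gene that rule took is reported here, and 1 marker list is left out. Tnmd, Lrrn4, Wt1, Thbs4, C1qb and the genes used in ratios came from the lists and were chosen after their values were seen. Other settings were scaling by upper quartile or by median of ratios, no low-count filter, a minimum of 1 CPM in 3 libraries, DESeq2 1.42.0, limma-voom (limma 3.58.1), robust estimation off, an adjusted p under 0.1, the replicate number as a block, leaving out each library or mitochondrial rows and their nuclear copies, and a length and GC correction. That correction with the block was chosen after seeing the data. Protein sequences and the promoters of Prg4, Dcn and Lum were not used here.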

Additional observations from a re-analysis of the deposited data

How the results depend on the processing

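Of all tested genes 1553 were called. The number was 2628 with no filter on low counts, 3449 with DESeq2, 3635 at an adjusted p under 0.1, 645 with the replicate block, 499 after the length and GC correction and 787 with that correction and the block, and it ran from 0 (without ICI replicate 1 or RI replicate 2) to 3109 (without RI replicate 1). Upper-quartile scaling gave 1046 higher and 497 lower, against 754 and 799.

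Of the 10 genes 1 was called, and 2 were with no filter, with the replicate block, at an adjusted p under 0.1 and with the correction and the block. When each library was left out in turn, 0 to 1 were. The second gene was Dcn under the block (3.08) and under the correction with the block (3.28), and Fmod with no filter (-1.98) and at an adjusted p under 0.1 (-1.91). With the block Lum was at 1.27, Bgn at 0.78, Podn at 1.95 and Aspn at -0.21, and 7 of the 10 had an unadjusted p under 0.05, against 3 without it. The log2 fold change of Prg4 lay between 3.03 and 3.64 with a library left out. Leaving out a library turned the direction of Bgn (-0.34 to 0.49) and Prelp (-0.95 to 0.05), and of the non-members Ecm2 (-0.37 to 0.06) and Tsku (-0.03 to 0.25). Ecm2 was also at 0.21 with the block, 0.10 after the correction and 0.46 with both, and Tsku at -0.01 with the block and -0.12 with both. The cause was not tested.

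Over the other lists 14 genes were called, against 29 with no filter, 35 with DESeq2, 32 at an adjusted p under 0.1, 34 with the replicate block, 6 after the correction and 39 with both, and 0 to 21 with a library left out. The larger count with the block does not hold the same genes: of the 7 called pathway genes 2 were called with it, and Spock2, Fam20b, Met, Bmp1 and Pcolce were not (adjusted p = 0.0504 to 0.129, edgeR), nor were the markers Marco, Cd163 and Mlana (0.0526 to 0.183). The block called 7 of 8 muscle markers and 1 of 9 joint markers higher, where 0 were called without it. With the median transcript length in place of the longest, 5 of 20 group levels per length moved by more than 1 SD and 15 did not. The numbers 1 and 2 are shared between the groups, but with only these 2 pairs (correlations of deviations 0.353 and 0.091) the samples were not taken as paired.

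Fmod and Omd rest on few counts, and 3 libraries a group limit what can be called. Counting error alone does not cover the differences between libraries of a group.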
